A study of Mus musculus with 2 samples.

Results

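The PDZ-LIM genes encode adaptor proteins that carry a PDZ domain at the N-terminus and, in their long forms, LIM zinc-finger domains towards the C-terminus. The members were given by name as Ldb3, Pdlim1, Pdlim2, Pdlim3, Pdlim4, Pdlim5 and Pdlim7. The rule for the list used no measured value, but earlier results of these data were known when it was chosen. All 7 were found among the 55536 annotated genes of the tables, with 56 annotated transcripts between them. The hearts came from female mice of strain B6CASTF1/J, the F1 offspring of C57BL/6J crossed with CAST/EiJ, aged 10 days. The 2 animals, replicates 1 and 2, form 1 group with no treatment, no engineered allele and 1 total RNA library from 300 ng of RNA each. Both are labelled as biological replicates under a single donor record, reads of the parental genomes were not told apart, and the labels name no contrast.

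PDZ-LIM proteins hold parts of the cytoskeleton together. The PDZ domain binds alpha-actinin, which crosslinks actin filaments at the Z-disc, the border between sarcomeres. The LIM domains of Ldb3 (also called Cypher or ZASP), Pdlim5 (ENH) and Pdlim7 (Enigma) are known to bind protein kinase C, so long forms can place a kinase at the Z-disc, while short forms keep the PDZ domain and end before the LIM domains. Mutations of the human LDB3 gene are known from cardiomyopathy and myofibrillar myopathy, and mice without Cypher lose Z-disc integrity in striated muscle.

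The PDZ end is what the members have in common. Below are the first 60 coding bases of each gene's reference transcript (GENCODE M21 on mm10, read 5′ to 3′ on the gene's own strand), with the codons of the motif Pro-Trp-Gly-Phe in the carboxylate-binding loop of the PDZ domain in capitals.
Ldb3: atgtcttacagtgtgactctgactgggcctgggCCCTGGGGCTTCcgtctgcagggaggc
Pdlim5: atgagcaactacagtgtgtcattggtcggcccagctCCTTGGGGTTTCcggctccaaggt
Pdlim1: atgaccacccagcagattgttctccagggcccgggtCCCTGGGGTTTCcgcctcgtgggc
Pdlim7: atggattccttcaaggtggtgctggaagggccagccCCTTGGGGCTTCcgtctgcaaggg
Pdlim3: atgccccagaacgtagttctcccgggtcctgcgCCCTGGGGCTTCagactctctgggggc
Pdlim4: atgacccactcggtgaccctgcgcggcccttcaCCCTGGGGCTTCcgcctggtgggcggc
Pdlim2: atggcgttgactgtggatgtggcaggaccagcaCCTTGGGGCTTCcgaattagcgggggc
The starts lie at chr14:34588410-34588469, chr3:142391749-142391808, chr19:40271382-40271441, chr13:55512348-55512407, chr8:45885580-45885639, chr11:54068873-54068932 and chr14:70175246-70175305, in the order printed, on the minus strand except for Pdlim3. All 7 genes hold the motif, and 33 of the 39 annotated coding transcripts do. Over the first 85 codons, translated, the 21 pairs of members shared between 41.2% and 67.4% of residues, with a median of 53.5%. Pdlim1 and Pdlim4 were the closest, and Ldb3 and Pdlim2 the most distant.

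The opposite end separates long from short forms. Below is the last LIM match of Ldb3 (transcript Ldb3-201, exons between chr14:34529481-34536654) and of Pdlim5 (Pdlim5-201, exons between chr3:142242701-142244985), with the codons of the zinc-binding residues in capitals.
Ldb3 LIM: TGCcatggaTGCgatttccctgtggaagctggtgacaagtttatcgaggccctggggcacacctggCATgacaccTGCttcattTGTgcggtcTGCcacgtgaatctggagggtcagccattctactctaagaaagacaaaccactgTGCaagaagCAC
Pdlim5 LIM: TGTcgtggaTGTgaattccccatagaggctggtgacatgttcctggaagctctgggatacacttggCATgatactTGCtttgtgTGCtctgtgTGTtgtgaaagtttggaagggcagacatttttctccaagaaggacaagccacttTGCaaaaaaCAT
Transcripts whose translation holds such a match are called LIM-containing, and coding transcripts without a match are called LIM-less. The LIM-less forms of Ldb3, Pdlim5 and Pdlim7 end in an exon of their own. The coding part of that exon is printed next, at chr14:34561788-34561881 for Ldb3, chr3:142303331-142303421 for Pdlim5 and chr13:55507030-55507123 for Pdlim7, with the codons for Trp-His-His in capitals.
Ldb3 tail: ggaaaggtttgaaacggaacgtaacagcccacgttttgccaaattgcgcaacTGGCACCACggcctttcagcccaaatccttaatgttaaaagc
Pdlim5 tail: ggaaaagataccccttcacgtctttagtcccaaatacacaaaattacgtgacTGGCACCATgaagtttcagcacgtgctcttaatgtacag
Pdlim7 tail: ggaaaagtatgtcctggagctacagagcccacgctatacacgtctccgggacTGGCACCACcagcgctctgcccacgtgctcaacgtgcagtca
The 3 exons hold the same 3 residues at the same distance from their start. In nucleotides, the Ldb3 exon was 57.9% identical to that of Pdlim5 and 58.5% identical to that of Pdlim7, and those of Pdlim5 and Pdlim7 were 57.3% identical to each other.

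The libraries held 40184481 and 39620543 expected counts in annotated genes in replicates 1 and 2, and paired values below follow that order unless named otherwise. The tissue label was checked against marker lists. All 5 heart muscle markers averaged at least 2694 TPM, the unit of all levels here, a relative abundance of transcripts corrected for length. Fibroblast, endothelial, mural and macrophage markers were present. None of these 20 genes was past 1.5-fold between the libraries, beside 8.05% of the 16517 genes whose counts summed to 20 or more. The 5 adipocyte markers summed to 64.5 TPM in replicate 1 and 10.1 TPM in replicate 2, and the 5 erythroid markers to 3482 TPM in replicate 1 and 8496 TPM in replicate 2. All 10 of those genes were past 1.5-fold, and their part in the values below was not tested. Of the skeletal muscle markers, Myh4 was listed at 0.01 TPM or less, and Myh1, Tnni2, Tnnt3 and Mylpf at 1.59 TPM or less. Acta1, which heart muscle also expresses, had 91.3 and 146 TPM and was past 1.5-fold, as was Tnni2. The 4 epithelial markers averaged 2.67 TPM or less. In bulk tissue, fewer cells of a type and less RNA per cell cannot be told apart.

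Ldb3 and Pdlim5 carried most of the family's RNA. The 7 genes summed to 736.9 TPM in replicate 1 and 787.9 TPM in replicate 2 (762 ± 36.1, SD, n = 2). Ldb3 and Pdlim5 made up 79.0% and 80.5% of that sum, and with Pdlim1 91.9% and 92.0%. The family took 0.126% of the counts of replicate 1 (exact 95% binomial interval 0.125% to 0.127%) and 0.134% of those of replicate 2 (0.132% to 0.135%), which covers counting error only.

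Ldb3, a striated muscle member of the family, stood at 371 and 389 TPM (380 ± 12.4 TPM, SD, n = 2, as for all levels that follow). It lies at chr14:34526603-34588682 on the minus strand and ranked 143rd and 140th of 22015 protein-coding genes of the nuclear genome. Pdlim5, which tethers protein kinase C to the Z-disc, stood at 211 and 246 TPM (228 ± 24.4 TPM) and ranked 305th and 262nd. It lies at chr3:142239590-142395696 on the minus strand. Among these nuclear protein-coding genes this is the 99.4th percentile in both hearts for Ldb3, and percentiles 98.6 and 98.8 for Pdlim5.

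Pdlim1, also called CLP36, an alpha-actinin partner on actin stress fibres of many cell types, had 94.9 and 90.4 TPM (92.7 ± 3.21 TPM). It lies at chr19:40221173-40271842 on the minus strand. Pdlim7, the Enigma protein, had 25.6 and 25.7 TPM (25.7 ± 0.0707 TPM) and lies at chr13:55495795-55513676 on the minus strand. The microRNA gene Mir6945 lies inside Pdlim7 on the same strand and was the only annotated gene that overlapped a member. Pdlim3, also called ALP, the alpha-actinin-associated LIM protein of muscle Z-discs and intercalated discs, had 19.4 and 20.2 TPM (19.8 ± 0.509 TPM). It lies at chr8:45885461-45919548 on the plus strand.

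The lowest levels belonged to Pdlim4 and Pdlim2. Pdlim4, also called RIL, which binds alpha-actinin on actin stress fibres, had 9.45 and 10.6 TPM (10.0 ± 0.785 TPM) and lies at chr11:54054928-54069014 on the minus strand. Pdlim2, known in mouse immune cells as an adaptor that promotes breakdown of STAT4 and the NF-kappa-B subunit p65, had 5.27 and 6.96 TPM (6.12 ± 1.20 TPM). It lies at chr14:70164218-70177681 on the minus strand and rested on 168 and 207 expected counts, against 32874 and 33933 for Ldb3. The authors' intervals for Pdlim2 ran from 4.72 to 7.11 TPM in replicate 1 and from 6.06 to 8.84 TPM in replicate 2, and overlapped each other. They lay below those of Pdlim4 in each heart, which ran from 8.59 to 11 TPM in replicate 1 and from 9.61 to 12 TPM in replicate 2. The intervals of Ldb3, 358 to 368 and 375 to 386 TPM, did not overlap between the hearts. Nor did those of Pdlim5, 202 to 212 and 236 to 246 TPM, while those of the other members did. In each heart the Ldb3 level, 371 and 389 TPM, lay above its own interval.

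**Figure D1:**
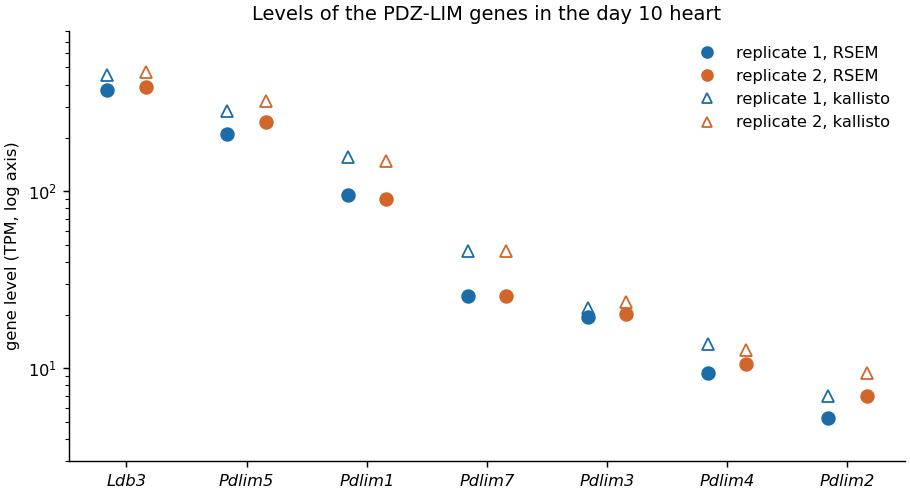
Gene level in TPM (log axis) of the 7 PDZ-LIM genes in each library, by RSEM (filled circles) and by kallisto (open triangles). Ldb3 stood highest at 371 and 389 TPM by RSEM, Pdlim2 lowest at 5.27 and 6.96 TPM, and kallisto placed every gene higher than RSEM did.

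The order of the members was the same in both hearts. Neighbours in this order were called apart if their log2 ratio of TPM had the same sign in each heart and its mean was above 3 SD. An exact test over 2 libraries cannot give a p below 0.5, so none is given. By this rule all 6 of 6 neighbours were apart. The mean of that log2 ratio was 0.74 ± 0.11 for Ldb3 over Pdlim5 (1.67-fold), 1.30 ± 0.20 for Pdlim5 over Pdlim1 (2.46-fold) and 1.85 ± 0.054 for Pdlim1 over Pdlim7 (3.60-fold). The closest neighbours were Pdlim7 and Pdlim3, at 0.37 ± 0.033 (1.30-fold). Pdlim3 over Pdlim4 stood at 0.98 ± 0.075 (1.97-fold) and Pdlim4 over Pdlim2 at 0.71 ± 0.17 (1.64-fold). In the kallisto tables the order was the same but Pdlim4 and Pdlim2 were no longer apart, at 0.69 ± 0.37.

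The kallisto levels of all 7 members were above the RSEM levels, by between 1.15-fold for Pdlim3 and 1.79-fold for Pdlim7. This was not particular to the members. In the lists of related genes described further below, only the splicing regulator Ptbp1 averaged lower by kallisto, at 48.8 against 53.3 TPM by RSEM. Ldb3 had 455 and 469 TPM by kallisto, and Pdlim5 had 282 and 325 TPM. Pdlim1, at 157 and 147 TPM, stood 1.64-fold above its RSEM level. The RSEM tables subtract 99 nt from a transcript's length and the kallisto tables about 333 and 329 nt. Levels from the 2 methods are not mixed in any ratio below.

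Between the 2 hearts the members differed by less than 1.5-fold. The log2 ratio of scaled counts, replicate 2 over replicate 1, was 0.086 for Ldb3 (counting SE 0.011), 0.20 for Pdlim5 (0.018) and -0.099 for Pdlim1 (0.041). It was -0.0067 for Pdlim7 (0.065), 0.067 for Pdlim3 (0.067), 0.21 for Pdlim4 (0.11) and 0.34 for Pdlim2 (0.15). None of the 7 members was past 1.5-fold, 0 of 7, beside 8.05% of the 16517 genes whose counts summed to 20 or more. At a ratio of 5 to 4 only Pdlim2 was past the limit, at 1.27-fold, beside 19.3% of those genes. In absolute terms the median log2 ratio stood at 0.099 for the members, 0.121 for all genes tested and 0.098 for the 12838 genes at 1 TPM or more in both libraries, a set that holds all 7 members.

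Scaling to the spike-in RNAs moved the median of all genes to -0.105, against 0.0023 under TMM scaling. Under that scaling Ldb3 stood at -0.022 and Pdlim3 at -0.040, so the sign of these ratios depended on the scaling. With 1 library on each side, no test of these ratios was possible, and none is read as a change.

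**Figure D2:**
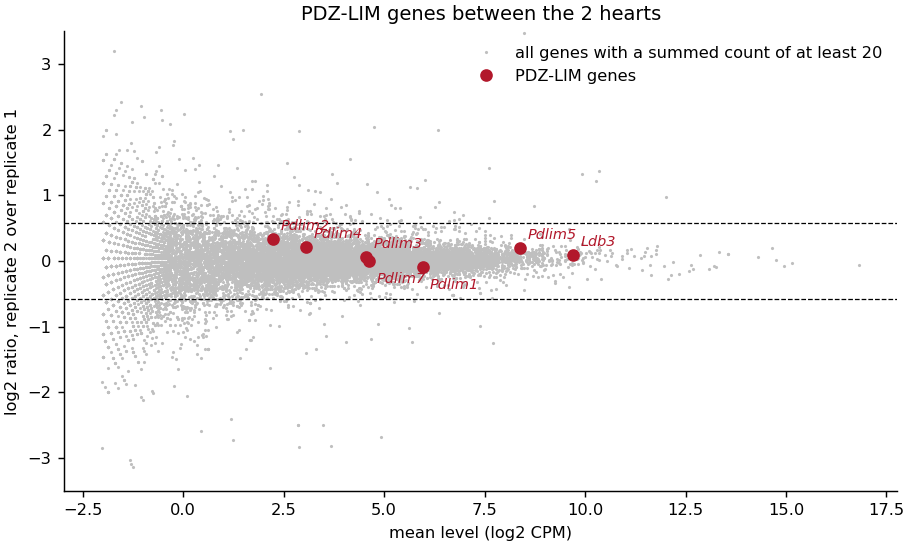
Log2 ratio of TMM-scaled CPM (library-scaled counts), replicate 2 over replicate 1, against mean level in log2 CPM, for 16517 genes (grey) and the 7 PDZ-LIM genes (red). Dashed lines mark 1.5-fold, all 7 members lie between them, and 32 genes lie beyond the vertical axis.

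Across the family, LIM-less transcripts outnumbered LIM-containing ones. Of the 56 transcripts, 18 were LIM-less, 21 LIM-containing and 17 without a coding sequence. By RSEM the LIM-less transcripts summed to 469 and 507 TPM and the LIM-containing ones to 228 and 242 TPM. That is 64.0% ± 0.563 and 30.8% ± 0.141 of the family's TPM (SD, n = 2), or 2.08 ± 0.028 LIM-less transcripts for each LIM-containing one. By kallisto this ratio was 2.07 and 2.09. The LIM-less class includes 7 transcripts with an incompletely annotated coding sequence, among them Pdlim1-202 at 47.2 and 44.6 TPM by RSEM.

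By RSEM Ldb3 was the largest source of both classes. It gave 48.2% and 46.1% of the LIM-less TPM, and Pdlim5 38.8% and 42.3%. Of the LIM-containing TPM, Ldb3 gave 63.6% and 63.8%, Pdlim5 12.8% and 12.7%, and Pdlim3 7.83% and 7.85%. By kallisto Ldb3 gave 44.0% and 41.8% of the LIM-less TPM and Pdlim5 40.9% and 44.6%, so Pdlim5 led in replicate 2.

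Ldb3, Pdlim5 and Pdlim7 were the members with complete LIM-less forms in quantity. For Ldb3 these made up 60.91% and 60.23% of the gene's TPM (226.0 and 234.1 TPM), and LIM-containing forms 39.09% and 39.77% (145 and 155 TPM). The ratio of LIM-less to LIM-containing forms was 1.54 ± 0.031 by RSEM and 1.39 and 1.34 by kallisto. Both libraries and both methods thus put the short forms of Ldb3 ahead in number of molecules. In reads the order was the other way round, with 10485 and 10641 expected counts in the LIM-less forms and 22389 and 23292 in the LIM-containing ones. The leading LIM-less transcript, Ldb3-203, has 1586 nt, and the main LIM-containing ones, Ldb3-201 and Ldb3-205, have 5119 and 4981 nt.

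Pdlim5 leaned furthest to the short form. Its LIM-less transcripts held 86.07% and 87.35% of the gene's TPM (182 and 214 TPM), and its LIM-containing transcripts 13.79% and 12.49% (29.1 and 30.7 TPM). The ratio was 6.62 ± 0.535 by RSEM, 6.84 and 7.52 by kallisto, and still 2.79 and 3.06 in counts not corrected for length. Within each library the Pdlim5 ratio was above that of Ldb3, at 6.24 against 1.56 in replicate 1 and 7.0 against 1.51 in replicate 2.

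Pdlim7 lay near Ldb3. Its LIM-less transcripts held 53.70% and 55.15% of the gene's TPM by RSEM and its LIM-containing transcripts 34.02% and 35.45%, a ratio of 1.58 and 1.56. By kallisto the ratio was 2.48 and 2.79, and there 31.4% and 33.5% of the gene's TPM lay in short transcripts whose annotated coding sequence is incomplete, mainly Pdlim7-210 with 365 nt. The complete LIM-less form Pdlim7-202 (188 codons), which ends in the tail exon printed above, held 45.13% and 52.84% by RSEM and 32.3% and 34.6% by kallisto. Pdlim7-201 (457 codons), the leading LIM-containing form, held 32.78% and 35.45% by RSEM and 25.4% and 24.7% by kallisto.

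Pdlim2, Pdlim3 and Pdlim4 were read almost entirely in LIM-containing transcripts. By RSEM no count fell to a LIM-less transcript of these 3 genes. The annotation lists no LIM-less transcript of Pdlim3, so none could draw a count there. It lists 1 for Pdlim2, with incomplete coding annotation, and 2 for Pdlim4. By RSEM LIM-containing transcripts held 97.87% and 97.19% for Pdlim2, 91.89% and 94.34% for Pdlim3 and 91.13% and 97.16% for Pdlim4. In the posterior mean estimates of RSEM these shares averaged 92.5% for Pdlim2, 92.1% for Pdlim3 and 86.9% for Pdlim4. Those estimates placed part of the TPM of Pdlim2 and Pdlim4 in LIM-less transcripts. By kallisto, Pdlim4 stood at 71.5% and 94.5%, because 21.7% of its TPM in replicate 1 and none in replicate 2 was placed in Pdlim4-204 (121 codons, incomplete annotation). In the main RSEM values the rest of each gene's TPM lay in transcripts without a coding sequence. The share of Pdlim2 includes a short transcript with a LIM match, Pdlim2-205. With long forms defined by coding length instead, the Pdlim2 share was 46.1%, against 93.1% for Pdlim3 and 94.1% for Pdlim4 (means of the libraries).

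Pdlim1 cannot be read in the same way. Its only LIM-less transcript, Pdlim1-202, is annotated without the end of its coding sequence and held 49.73% and 49.37% of the gene's TPM by RSEM, and 36.9% and 37.3% by kallisto. The full-length transcript Pdlim1-201 (327 codons, 2571 nt) held 14.15% and 13.12% by RSEM, and 9.32% and 8.73% by kallisto. Pdlim1-203, with no coding sequence, held 35.10% and 36.79% by RSEM, and 36.1% and 34.9% by kallisto. Pdlim1-205, likewise without one, held 17.3% and 18.8% by kallisto and 0.62% and 0.54% by RSEM. In expected counts the full-length transcript took 39.0% ± 1.32 of the gene. With long forms defined by coding length, Pdlim1-202 counts as long and the long share was 63.2%.

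**Figure D3:**
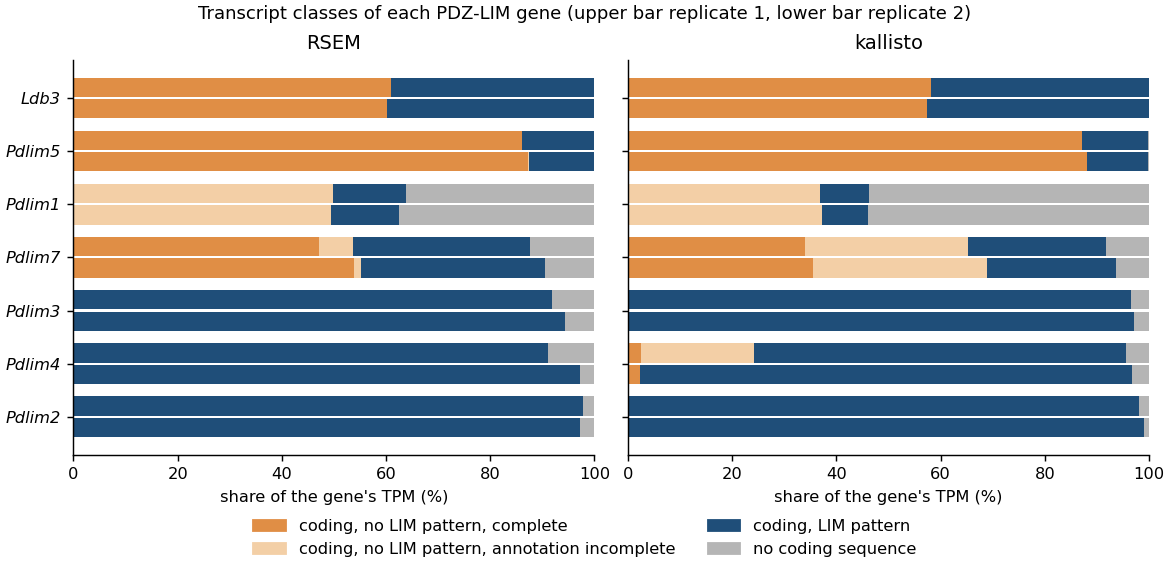
Share of each gene's TPM in % held by complete LIM-less, incompletely annotated LIM-less, LIM-containing and non-coding transcripts, by RSEM (left) and kallisto (right), replicate 1 above replicate 2. LIM-less forms led in Ldb3 at 60.91% and 60.23% and in Pdlim5 at 86.07% and 87.35% by RSEM, and LIM-containing forms led in Pdlim3, Pdlim4 and Pdlim2 by both methods.

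Ldb3 also has a choice between exons in its middle part. A single exon of 359 coding bases (chr14:34576986-34577344) is known from the heart forms of mouse Cypher, and a set of 3 exons with 242 coding bases (between chr14:34569713-34573012) is known from its skeletal muscle forms. Below, the last 15 bases of the shared exon before the choice are in lower case and the first 60 bases of each route in capitals, shown because the forms of Ldb3 divide here.
Ldb3 heart-type exon: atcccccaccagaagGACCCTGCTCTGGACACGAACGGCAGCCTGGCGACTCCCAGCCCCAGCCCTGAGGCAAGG
Ldb3 alternative exon: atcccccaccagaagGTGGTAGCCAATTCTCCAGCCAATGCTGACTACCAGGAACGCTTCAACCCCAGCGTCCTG
The heart-type exon is in Ldb3-201, Ldb3-202 and Ldb3-203. The alternative exons are in Ldb3-205, Ldb3-207 and Ldb3-208, and in Ldb3-204 without the exon of 15 bases.

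Transcripts with the heart-type exon led in both libraries and by both methods, but the methods differed in how far. By RSEM they held 93.21% and 93.40% of the Ldb3 TPM (93.3% ± 0.134), and by kallisto 70.5% and 71.2% (70.9% ± 0.489). Transcripts with the alternative exons held 6.79% and 6.60% by RSEM, and 29.5% and 28.8% by kallisto. The gap between methods was larger than the spread between hearts by either method.

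Among the LIM-less transcripts of Ldb3 the methods gave similar shares of the heart-type exon. The heart-type exon was in 93.7% and 93.0% of their TPM by RSEM, and in 96.4% and 96.2% by kallisto. Ldb3-203 (327 codons, heart-type exon) was the most abundant transcript of the gene, at 57.07% and 56.03% by RSEM, and 56.0% and 55.1% by kallisto. Ldb3-207 (288 codons, alternative exons), the shortest coding form, held 3.84% and 4.2% by RSEM, and 2.12% and 2.19% by kallisto.

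The methods parted in the LIM-containing transcripts. There the heart-type exon was in 92.5% and 94.0% of the TPM by RSEM, and in 34.7% and 37.7% by kallisto. Ldb3-201 (723 codons, heart-type exon) held 34.95% and 35.85% of the gene by RSEM, and 10.6% and 12% by kallisto. Ldb3-205 (684 codons, alternative exons) held 2.95% and 2.40% by RSEM, and 27.4% and 26.5% by kallisto. These transcripts share most of their length: of the 31-base windows within the gene's annotation, 122 of 5089 in Ldb3-201 and 131 of 4951 in Ldb3-205 occur in no other Ldb3 transcript. Windows shared by the transcripts of a route are not among these. Those specific to the heart-type exon numbered 386, and those specific to the alternative exons 227. Which method is nearer to the molecules present was not tested, so the leading long form of Ldb3 is not settled by these tables.

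Another exon of the long forms had like shares by both methods. This exon (chr14:34555343-34555528), present in Ldb3-201, Ldb3-204 and Ldb3-205 and absent from Ldb3-202 (661 codons), was held by 37.90% and 38.25% of the gene's TPM by RSEM, and by 37.9% and 38.6% by kallisto. Ldb3-202, the only long form without it that drew counts, held 1.19% and 1.52% by RSEM, and 3.96% and 4.10% by kallisto.

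The short forms of Pdlim5 were spread over several transcripts. Pdlim5-205 (239 codons, 2010 nt) led by RSEM with 45.50% and 46.08%, and held 27.1% and 28.6% by kallisto. Pdlim5-204 held 23.48% and 22.21% by RSEM, and 23.3% and 21.7% by kallisto. Pdlim5-202 (239 codons, 873 nt) held 15.54% and 17.42% by RSEM, and 26.0% and 28.1% by kallisto. The shortest coding form, Pdlim5-203 (214 codons), held 1.55% and 1.58% by RSEM, and 10.7% and 9.71% by kallisto. All 4 end in the tail exon of the LIM-less forms, which 86.07% and 87.29% of the gene's TPM held by RSEM, and 87.1% and 88.1% by kallisto.

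The long forms of Pdlim5 were few and mainly of 2 kinds. Pdlim5-201 (591 codons) held 8.37% and 7.72% by RSEM, and 7.74% and 7.07% by kallisto. Pdlim5-206 (614 codons), the longest coding form, held 4.11% and 3.68% by RSEM, and 4.73% and 4.19% by kallisto. The methods thus gave the same order of these forms in both hearts.

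**Figure D4:**
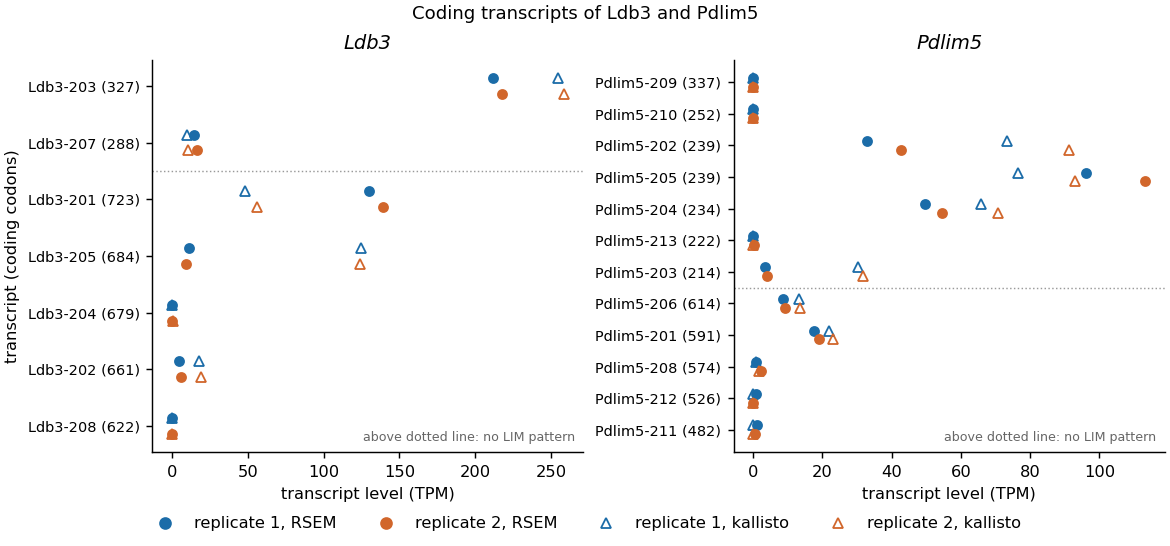
Level in TPM of each coding transcript of Ldb3 and Pdlim5 (coding codons in brackets), by RSEM (filled circles) and kallisto (open triangles) in each library, LIM-less transcripts above the dotted line. Ldb3-203 led by both methods, while Ldb3-201 and Ldb3-205 changed places between the methods.

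**Figure D5:**
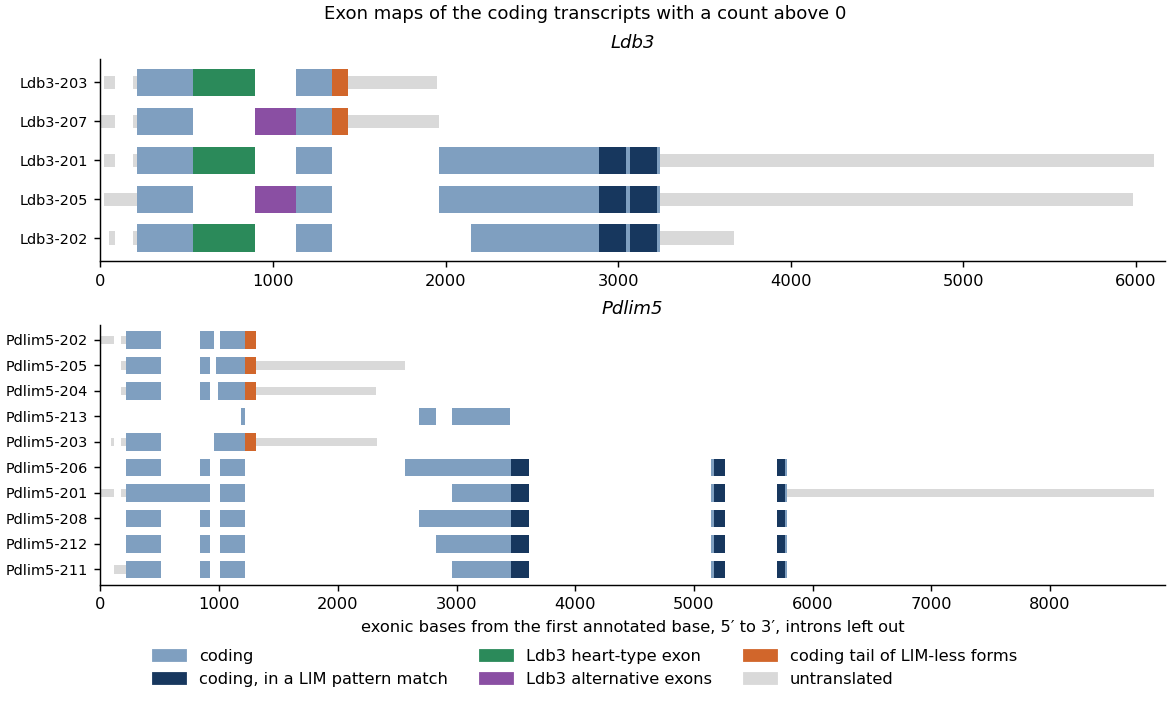
Exon maps of the Ldb3 and Pdlim5 coding transcripts with an RSEM count above 0 in a library, drawn to scale in exonic bases with introns left out. Orange marks the coding tail of the LIM-less forms, dark blue the LIM matches, green the 359-base heart-type exon of Ldb3 and purple its alternative exons of 242 bases.

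The other members used fewer forms. Pdlim3-201 (316 codons), with an exon of 188 bases (chr8:45908469-45908656), held 89.69% and 90.90% of its gene by RSEM, and 92.4% and 90.1% by kallisto. Pdlim3-203 (364 codons), which has 2 exons with 332 bases in its place, held 2.20% and 3.44% by RSEM, and 4.04% and 7.03% by kallisto. Pdlim4-201 (330 codons) held 91.13% and 97.16% by RSEM.

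Pdlim2 was divided mainly between a full-length form and one without the PDZ motif. Pdlim2-201 (349 codons) held 39.0% and 34.5% of the gene by RSEM, and 25.2% and 42.0% by kallisto. Pdlim2-205 (128 codons), which holds the LIM match but not the PDZ motif, held 46.6% and 39.5% by RSEM, and 37.6% and 48.5% by kallisto. Pdlim2-210, also of 349 codons, held 8.63% and 10.1% by RSEM, and 29.1% and 4.64% by kallisto. Summed, the transcripts of 349 codons held 47.6% and 44.6% by RSEM, ahead of Pdlim2-205, and 54.3% and 46.7% by kallisto, ahead in replicate 1 and behind in replicate 2. These shares rested on 48.5 and 53.2 expected counts for Pdlim2-205 and on 91.6 and 105 for Pdlim2-201.

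Set beside their partners, the PDZ-LIM genes came near the level of cardiac alpha-actinin only as a sum. Actn2, the alpha-actinin of the heart Z-disc, had 877 and 904 TPM (890 ± 19.2 TPM), and the 7 members together stood at 0.840 and 0.872 of its TPM level. Ldb3 alone stood at 0.423 and 0.430 of the Actn2 level and Pdlim5 at 0.241 and 0.272. Actn4 and Actn1, the alpha-actinins of non-muscle cells, averaged 67.7 and 28.2 TPM, and Actn3, that of fast skeletal muscle, 0.135 TPM. These levels and ratios are by RSEM. By kallisto the 7 members summed to 983 and 1033 TPM, beside 1000 and 1034 TPM for Actn2.

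Among other genes with a PDZ and a LIM domain, Lmo7 averaged 171 TPM, between Pdlim5 and Pdlim1, and Limk1, a kinase of the actin regulator cofilin, 4.47 TPM. Of the other muscle LIM proteins, Csrp3 (muscle LIM protein, at the Z-disc) was highest at 675 TPM and Fhl3 lowest at 7.62 TPM. Of the Z-disc partners, Myoz2, the cardiac calsarcin, averaged 513 TPM and Myoz3 0.01 TPM. Of the kinases that LIM domains can bind, Prkca was highest at 22.0 TPM and Prkcb lowest at 0.98 TPM. Of the muscle splicing regulators, Rbm20, known to regulate Ldb3 and titin splicing, was highest at 113 TPM and Rbfox1 lowest at 15 TPM. Of these 6 lists, 1 of 4 alpha-actinins (Actn3, lower in replicate 2) and 1 of 7 tested Z-disc partners (Myoz1, higher in replicate 2) were past 1.5-fold. Over all genes tested the share was 8.05%. Both genes rested on few counts, 13 and 8 for Actn3 and 16 and 24 for Myoz1. None of the 3 genes with PDZ and LIM domains, 6 LIM proteins, 6 kinases or 9 splicing regulators was past 1.5-fold between the hearts.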

How the data were processed

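Both libraries were analysed from tables the authors made on mm10 with GENCODE M21, per the text deposited with them. The deposited RSEM-type tables hold expected counts, TPM, the percent of a gene's TPM in each transcript (IsoPct) and the bounds of the authors' TPM intervals. The deposited kallisto-type tables hold estimated counts and TPM per transcript. Method names were read from the file headers, and neither labels nor headers state the tools' versions, the trimming or the read length. Lengths and effective lengths are further deposited columns, and the authors' interval bounds are on the TPM signal scale.

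A further 26248 entries name no gene (3.84 and 2.92 counts) and were left out with the 96 spike-ins, which took 0.541% and 0.575% of counts. Levels are gene TPM, compared between genes as log2(TPM + 0.1). Ratios between libraries used expected counts scaled by TMM (edgeR 4.0.16, R 4.3.3), a prior count of 0.5 and a summed count of at least 20. The edgeR quasi-likelihood test could not be fitted with 1 group, so no p-value is given. The labels give the libraries separate biosamples and animal numbers under a single donor record, and they were taken as 2 animals. The fold rule was tested on simulated counts with planted changes. Those counts held counting error only, so the simulation cannot cover the spread between animals.

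Transcript classes came from translating annotated coding sequences with Python 3.11.15 and Biopython 1.88, and searching for the LIM zinc-finger pattern and for Pro-Trp-Gly-Phe. The pattern can miss LIM domains, so its matches are not a count of domains. Named transcripts held at least 10% of their gene in both libraries by either method (17 of 56), or had the longest or shortest coding sequence. Ldb3-202 was added after its values were seen, as a long form without an exon described. Context genes are the ends of lists. Members and lists were chosen with earlier results of these data known. Amino acid sequences are not printed here.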

Additional observations from a re-analysis of the deposited data

How the results depend on the processing

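The order of the 7 genes was the same in the kallisto and posterior mean tables, with a pseudocount of 0 or 1, and in counts not corrected for length. All 6 neighbours were apart except in the kallisto tables and the uncorrected counts, with 5 apart each (in the counts, Pdlim7 and Pdlim3 were not, at 0.079 ± 0.052). The median member level, 25.7 TPM, became 45.9 by kallisto and 26.1 by posterior mean, and 25.6 to 25.7 with a library left out. The family sum, 762 TPM, became 1008 by kallisto, and 736.9 to 787.9 with a library left out. At a ratio of 5 to 4 in place of 1.5, the members past the limit were 1 and not 0. With DESeq2 size factors, library totals, kallisto counts or no filter, the sign of no member's ratio between the hearts changed. The family's LIM-containing share, 30.8%, became 29.7% by kallisto, 56.1% in counts, 32.5% over transcripts annotated as protein coding, 36.5% with long forms defined by coding length (46.1% for Pdlim2 and 63.2% for Pdlim1, against 97.5% and 13.6%), and 30.7% to 30.9% with a library left out. It was 32.8% without incompletely annotated coding transcripts, an alternative chosen after seeing the data, as were all those for the heart-type exon of Ldb3. The Ldb3 share, 39.4%, became 42.3% by kallisto, 68.4% in counts, and 39.1% to 39.8% with a library left out. The Pdlim5 share, 13.1%, became 25.5% in counts, and 12.5% to 13.8% with a library left out. The heart-type exon share of Ldb3, 93.3%, became 70.9% by kallisto, 93.4% in counts and 93.2% by posterior mean. The cause of the differences between RSEM and kallisto was not tested. No paired analysis was possible because there is only 1 group. Depth limits Pdlim2 and Pdlim4 most, and transcripts of Pdlim2 above all.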
